A study of Mus musculus with 48 samples.

Results

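The dual-specificity phosphatase genes Dusp1, Dusp2, Dusp4, Dusp5, Dusp6, Dusp10 and Dusp16, the Sprouty genes Spry1 and Spry2, and the related gene Spred1 were described by the accessibility of the chromatin around them in tumour-infiltrating CD8 T cells of mice. A peak is a stretch of chromatin called open by ATAC-seq, and it was counted for a gene when it overlapped the gene body or, failing that, when that gene body was the nearest protein-coding one within 100 kb. This rule gave 82 of the 53868 peaks, 28 over a gene body and 54 beside one. Dusp5 held 17 of them, Dusp10 11, Dusp4 10, Dusp16 9, Spry2 8, Spred1 8, Dusp1 6, Spry1 6, Dusp6 4 and Dusp2 3. Of the 82 peaks, 9 covered the start of their gene. No start was assigned for Dusp4, whose strand was not given. The assignment is by position alone, and no transcript or protein of these genes was measured here.

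Dual-specificity phosphatases remove the activating phosphates from MAP kinases. Dusp1, Dusp2, Dusp4 and Dusp5 are nuclear and induced by the pathways they turn off, Dusp5 acting on ERK alone, and Dusp6 holds ERK in the cytoplasm. Dusp10 and Dusp16 act mainly on the stress kinases JNK and p38, whereas Sprouty and Spred proteins act upstream and damp the relay from Ras to Raf. In T cells these genes are part of the feedback that follows antigen receptor signalling, which runs through Ras and ERK.

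The cells were OT-1 CD8 T cells, which recognise an ovalbumin peptide, from CD45.1 donors whose cells express Cas9. They received a lentivirus carrying a single guide RNA and the fluorescent protein ametrine, went into young or aged mice a day before B16-OVA melanoma (a mouse line that expresses ovalbumin) was injected, and were sorted from the tumours on day 15. The guides were Zfp219, Dusp5 and the control that the labels call OTC, used here only as a name. The letters A and Y that open the titles were taken to stand for aged and young hosts. Tprog cells carried Slamf6 without Tim-3, Ttran cells both, Tterm cells Tim-3 without Slamf6, and Ttad cells neither. Every library pooled 5000 to 50000 cells of several mice, so p-values measure the spread between such pools. That spread was estimated over all 21 groups together and moderated by limma (93.7 residual and prior degrees of freedom for peaks). It is thus not the spread of the compared groups alone. The 48 libraries formed 21 groups, 15 of 2 libraries and 6 of 3. Aged hosts gave 24 libraries, 2 for each guide in each of the 4 states. Young hosts gave the other 24, with 2 libraries of Tprog and 3 of Ttran and Tterm for each guide, and no Ttad library. All cells, the controls included, carried Cas9, a lentiviral guide and the same antigen receptor, and no uninfected cells or normal tissue entered the comparisons.

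Values are reads in a peak divided by a library factor set by the authors, called normalized reads below. In every library that factor equalled the median-of-ratios size factor, the median over peaks of a library's reads relative to their mean over libraries. Libraries held 5638413 to 29942755 reads in peaks, with at most 16159054 in aged and at least 6589023 in young libraries. A locus total is the sum of the normalized reads of all peaks of a gene. Fold changes are log2(value + 1) differences, which understate changes of weak peaks, and a call is a limma adjusted p under 0.05 over all peaks (or over all 15017 locus totals). Peaks over the bodies of 7 of 7 T cell marker genes summed to 8594 to 11321 normalized reads per library. Melanoma genes had a peak in 3 of 7 bodies (720 to 1406 summed, none over Tyr, Tyrp1, Dct or Sox10). Myeloid genes had one in 4 of 7 (1241 to 1871, none over Lyz2, Csf1r or Adgre1) and stromal genes in 4 of 5 (3036 to 4205, none over Col1a2). The T cell sum covered 23 peaks, the melanoma sum 4, the myeloid sum 9 and the stromal sum 14, so the sums are not compared. Per peak the median library held 427 for T cell, 249 for melanoma, 179 for myeloid and 254 for stromal genes. In such bulk samples fewer cells of a type and less signal per cell cannot be told apart.

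The promoters of Dusp5 and Dusp1 are shown because they held CArG or CRE matches, described after the sequences, and those of Dusp2 and Spry1 because the state change at their start peaks differed between ages. Sequences are from RefSeq on GRCm38.p6, each the 250 bases before the start, 5′ to 3′ on the strand of the gene, with motif matches in capitals.
Dusp5 (chr19:53528895-53529144, plus strand): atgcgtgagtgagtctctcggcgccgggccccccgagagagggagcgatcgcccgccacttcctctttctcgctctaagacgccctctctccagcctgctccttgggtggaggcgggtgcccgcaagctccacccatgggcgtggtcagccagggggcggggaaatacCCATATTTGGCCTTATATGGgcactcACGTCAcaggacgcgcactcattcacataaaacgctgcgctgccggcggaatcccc
Dusp1 (chr17:26508473-26508722, minus strand): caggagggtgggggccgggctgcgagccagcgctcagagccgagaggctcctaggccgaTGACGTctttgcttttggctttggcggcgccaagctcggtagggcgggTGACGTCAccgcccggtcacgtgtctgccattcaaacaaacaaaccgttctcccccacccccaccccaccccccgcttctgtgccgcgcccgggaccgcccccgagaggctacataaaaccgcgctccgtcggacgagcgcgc
Dusp2 (chr2:127335909-127336158, plus strand): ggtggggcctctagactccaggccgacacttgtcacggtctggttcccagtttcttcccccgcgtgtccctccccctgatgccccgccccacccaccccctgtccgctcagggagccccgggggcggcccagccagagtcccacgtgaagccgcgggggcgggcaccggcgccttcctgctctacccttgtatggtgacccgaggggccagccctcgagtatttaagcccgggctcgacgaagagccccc
Spry1 (chr3:37639697-37639946, plus strand): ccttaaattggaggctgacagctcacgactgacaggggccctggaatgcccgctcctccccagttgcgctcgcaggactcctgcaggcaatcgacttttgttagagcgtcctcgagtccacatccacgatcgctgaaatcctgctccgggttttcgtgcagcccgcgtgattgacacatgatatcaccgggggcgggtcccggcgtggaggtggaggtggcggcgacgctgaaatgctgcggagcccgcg

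The Dusp5 window held 2 adjacent CArG boxes, the element that serum response factor binds, at 82 to 73 and 72 to 63 bases before the start. At least 1 CArG box was found in 1.52% of 21263 RefSeq promoter windows of 300 bases, and 2 or more in 0.0235%. A short cyclic AMP response element (CRE) form, TGACGT on either strand, followed at 56 to 51 bases before the Dusp5 start, against 8.49% of windows with at least 1. The Dusp1 window held the full CRE TGACGTCA at 143 to 136 bases before the start (2.23% of windows), which overlaps the short form, and another TGACGT at 191 to 186 bases. Also searched on both strands were AP-1 (TGANTCA, 6.99% of windows), NFAT (GGAAAA, 22.3%), ETS (CCGGAAG, 11.6%), TCF/LEF (CTTTGAT, 3.22%), Runx (TGTGGT, 15%) and Egr (GCGTGGGCG, 0.828%). None of these letters stood in the Dusp2 or Spry1 window, and Spry2 held GGAAAA at 96 to 91 and at 16 to 11 bases before its start. Of the 10 genes 9 had a promoter window in the table, and 6 of the 9 held no match to any of these motifs. A match is a description of letters and not of binding.

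Per kilobase of peak, the start peak of Dusp10 was the strongest, with a mean of 1252 normalized reads per kb over all 48 libraries. It was followed by the start peaks of Dusp2 (987), Dusp1 (908) and Dusp6 (666). The start peaks of Dusp5 (395), Dusp16 (310), Spry1 (250.4), Spred1 (225) and Spry2 (201) were weaker per kb. For these genes other than Spred1 the strongest peak per kb lay away from the start. For Dusp5 it lay 64.3 kb upstream (892 per kb, followed by 833 at 67.9 kb upstream), for Dusp16 76.4 kb downstream (618), for Spry1 14.5 kb downstream (592) and for Spry2 26.1 kb upstream (298). Of the 82 peaks, 6 also covered the start of another gene. Among them were the start peaks of Dusp2 (lncRNA Gm46762), Dusp10 (1700056E22Rik) and Dusp16 (lncRNA 1700055D16Rik). The Dusp5 peaks 67.9 kb (lncRNA 4833407H14Rik) and 64.3 kb upstream (lncRNA Mirt1) were others. The Dusp16 gene body reaches upstream of the start used here, with a peak over it 13.5 kb upstream.

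Over all 21 groups the locus totals are given as the lowest and highest group mean, first without the Dusp5-guide libraries and with Dusp5 itself described further on. These totals are not per length, so genes are not compared by them. Dusp1 ran from 3606 in young Zfp219 Tterm to 4674 in aged OTC Ttran, and Dusp2 from 4858 in young Zfp219 Tprog to 6730.0 in aged OTC Tterm. Dusp4 ran from 5035 (young Zfp219 Tterm) to 6375 (aged OTC Tterm) and Dusp6 from 3064 (young Zfp219 Tprog) to 3659 (aged OTC Ttran). An aged OTC group was thus the highest for each of these 4 genes and a young Zfp219 group the lowest. Dusp10 ran the other way, from 2835 in aged Zfp219 Tterm to 4101 in young OTC Tprog. Dusp16 ran from 1978 in young OTC Tprog to 2997 in aged OTC Tterm. Spry1 ran from 1499.9 (aged Zfp219 Ttran) to 1920.2 (aged OTC Tprog), Spry2 from 841 (young Zfp219 Ttran) to 1687 (aged OTC Ttad) and Spred1 from 898 (young Zfp219 Tprog) to 1221 (aged OTC Ttran).

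In the Dusp5-guide libraries the group means of Dusp1 ran from 3354 (young Tterm) to 4340.0 (aged Tprog), of Dusp2 from 5087 (young Tterm) to 5762 (aged Ttran) and of Dusp4 from 5451 (young Tterm) to 6223 (aged Tprog). Dusp6 ran from 3206 (young Tprog) to 3489.8 (aged Ttad), Dusp10 from 3111 (aged Tterm) to 3938 (young Tprog) and Dusp16 from 2154 (young Tprog) to 2729.9 (aged Tterm). Dusp10 and Dusp16 thus had the same end groups of age and state as with the other guides. Spry1 ran from 1346 (aged Tterm) to 1915 (young Tprog), Spry2 from 1127 (young Tprog) to 1566 (aged Ttad) and Spred1 from 988 (young Ttran) to 1274 (aged Ttad).

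The first comparison was between Tprog and Tterm, which share the OTC guide and differ in Slamf6 and Tim-3. The chromatin around Dusp5 and Dusp16 was less accessible in Tprog than in Tterm, and that around Dusp10 was more accessible. In young hosts 26 of 82 peaks were called, 11 higher and 15 lower in Tprog, against 26.5% of all peaks (13.9% higher and 12.6% lower). In aged hosts 20 were called, 4 higher and 16 lower, against 20.1% (8.88% higher and 11.2% lower); quantile normalization gave 6 higher and 13 lower. As a set the 82 peaks were thus called about as often as peaks elsewhere. The median fold change over the 82 peaks was -0.09 in aged hosts against 0.01 over all peaks. Of the 10 locus totals, 4 were called in young hosts (1 higher, background 34.6%) and 5 in aged hosts (2 higher, background 25%); gene-body peaks alone gave 6 (2 higher) and 3 (none higher). The young peak count fell to 8 without young OTC Tprog replicate 2 and to 16 without replicate 1.

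**Figure D1:**
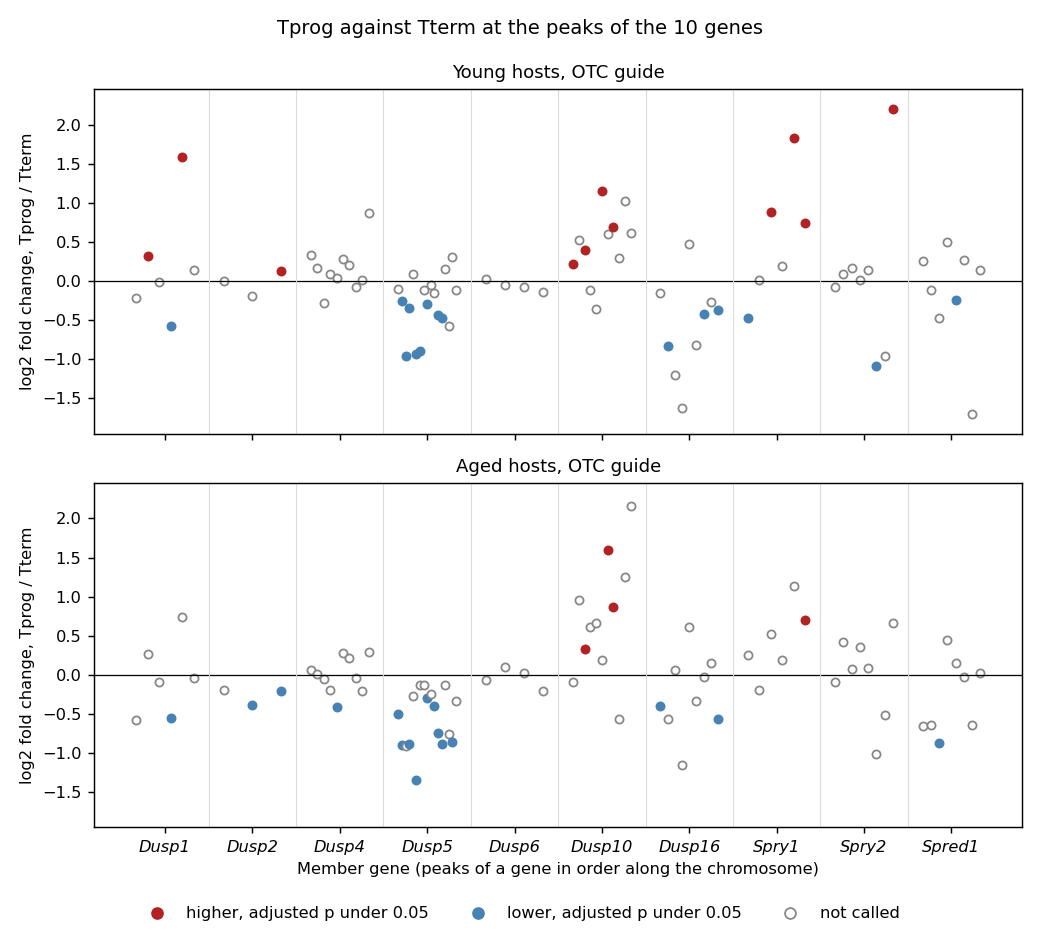
Log2 fold change of Tprog over Tterm (vertical axis) at each of the 82 peaks, grouped by gene along the horizontal axis, in young (upper panel) and aged hosts (lower panel) with the OTC guide, filled where the adjusted p was under 0.05. The Dusp5 peaks that were called all lie below 0 in both panels, and the called Dusp10 peaks all lie above 0.

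Dusp5 showed the largest locus difference of state among the 10 genes in aged hosts. The Dusp5 locus total was 5802 and 5943 in the aged OTC Tprog libraries and 8377 and 8697 in Tterm. In young hosts it was 6302 and 6206 in Tprog and 7227, 7335 and 6961 in Tterm. In both ages every Tprog library lay below every Tterm library, and the gap was wider in aged hosts. The log2 fold change was -0.54 (SE 0.03, adjusted p = 6.09e-29) in aged and -0.20 (SE 0.03, adjusted p = 6.87e-08) in young hosts. The difference between the ages was -0.34 (SE 0.05, adjusted p = 9.38e-09). The call of that difference did not hold with gene-body peaks alone (-0.12, adjusted p = 0.431) or with a mean of log2 over peaks (-0.27, adjusted p = 0.281).

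The lower accessibility in Tprog was spread over the Dusp5 neighbourhood. In aged hosts 9 of the 17 Dusp5 peaks were called and in young hosts 8, all of them lower. The peak 64.3 kb upstream (chr19:53464435-53465312, over the Mirt1 start, positions on mm10 as the authors' table gives them) held 554 and 477 normalized reads in aged Tprog and 912 and 1005 in aged Tterm. The young libraries held 726 and 733 in Tprog and 887, 914 and 817 in Tterm. The groups did not overlap in either age. Its log2 fold change was -0.90 (SE 0.10, adjusted p = 1.73e-11) in aged hosts. The young value was -0.26 (SE 0.09, adjusted p = 0.0327), a call lost when any of 4 of the 5 young libraries was left out (adjusted p of 0.0823 to 0.145) and after quantile normalization (adjusted p = 0.0573).

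The peak 49.4 kb upstream of Dusp5 (chr19:53479124-53480461) held 471 and 546 in aged Tprog and 914 and 964 in aged Tterm. It fell in aged Tprog by 0.89 (SE 0.11, adjusted p = 9.73e-10) on the log2 scale. In young hosts the values were 577 and 533 in Tprog and 717, 708 and 695 in Tterm, and the log2 fold change was -0.35 (SE 0.10, adjusted p = 0.00726). Without young OTC Tprog replicate 2 it was -0.29 (adjusted p = 0.122). In aged hosts the largest fold change among the Dusp5 peaks was at a weak peak 28.2 kb upstream (mean 89.8), -1.34 (SE 0.28, adjusted p = 0.000117). In young hosts that peak changed by -0.93 (SE 0.26, adjusted p = 0.00327); the young value was -0.62 (adjusted p = 0.184) without young OTC Tprog replicate 2. Downstream, the peak 18.7 kb from the start changed by -0.88 (SE 0.18, adjusted p = 8.28e-05) in aged hosts. These peaks lie outside the Dusp5 gene body.

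The start peak of Dusp5 (chr19:53528476-53530901) changed less. It held 926 and 835 in young Tprog, 1086, 1092 and 1046 in young Tterm, 893 and 889.9 in aged Tprog and 1074 and 1116 in aged Tterm. Tprog was below Tterm in every library of both ages. It fell by 0.29 (SE 0.08, adjusted p = 0.00238) on the log2 scale in young hosts, where the value was -0.22 (adjusted p = 0.118) without young OTC Tprog replicate 2. In aged hosts it was -0.30 (SE 0.08, adjusted p = 0.00615), with an adjusted p of 0.0721 without aged OTC Tterm replicate 2 and a value of -0.18 (adjusted p = 0.131) after quantile normalization.

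**Figure D2:**
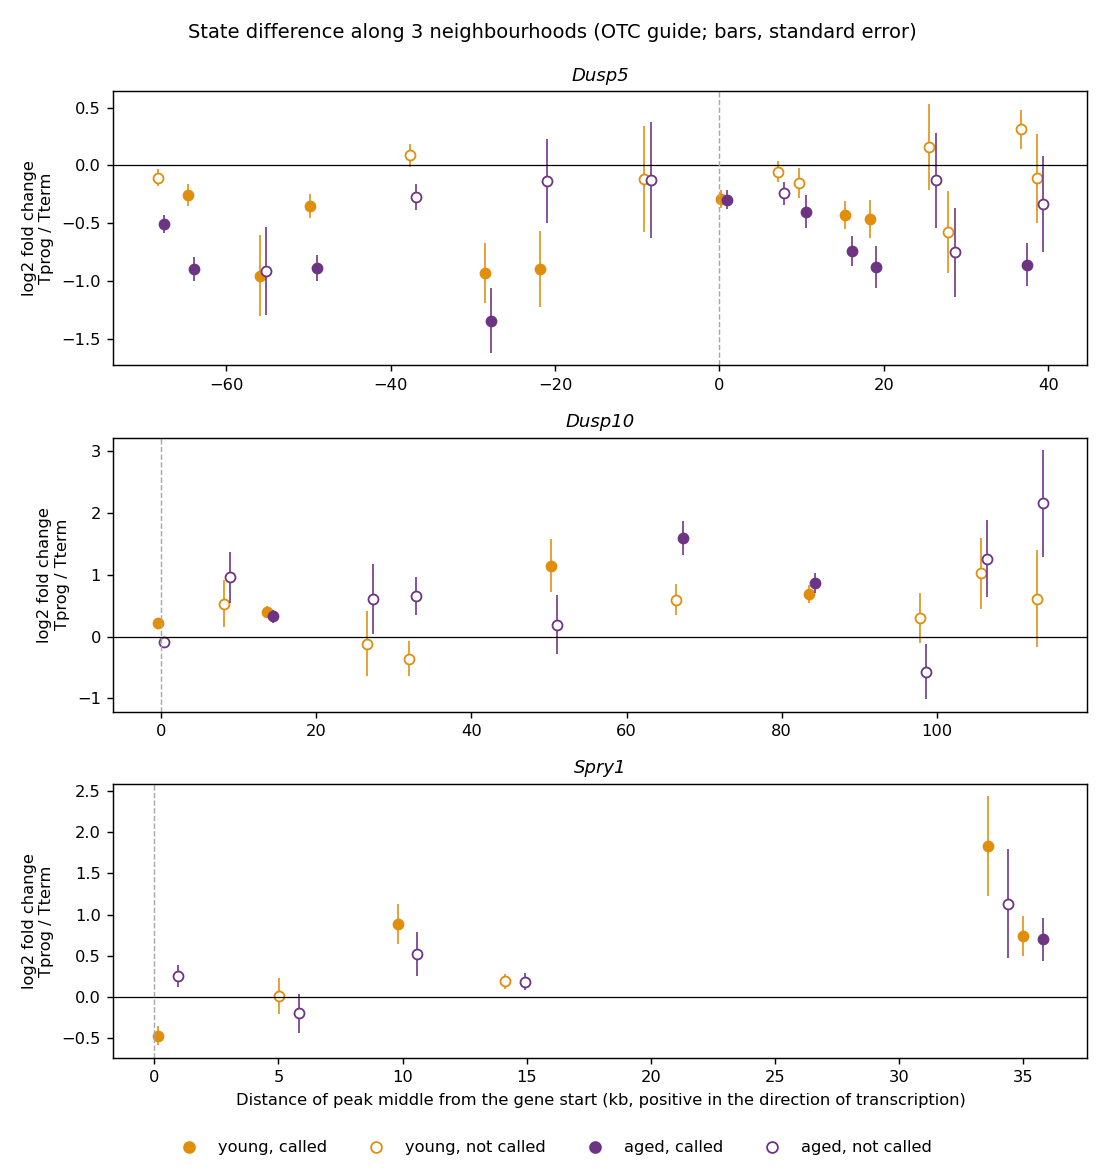
Log2 fold change of Tprog over Tterm (vertical axis, bars are standard errors) against the distance of the peak middle from the gene start in kb, for Dusp5, Dusp10 and Spry1, with the OTC guide in young (orange) and aged hosts (purple), filled where called. Around Dusp5 the called peaks fell on both sides of the start, around Dusp10 they rose out to 83.9 kb downstream, and in young hosts the Spry1 start peak fell while the called peaks from 10.2 kb on rose.

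The Dusp5 locus total was lower in Tprog than in Tterm in all 6 combinations of guide and age. With the Zfp219 guide it changed by -0.42 (SE 0.03, adjusted p = 5.09e-21) in aged and -0.26 (SE 0.03, adjusted p = 8.23e-12) in young hosts (background 22.2% and 33.4% of locus totals). With the Dusp5 guide it changed by -0.50 (SE 0.03, adjusted p = 5.18e-26) in aged and -0.15 (SE 0.03, adjusted p = 6.5e-05) in young hosts (background 26.9% and 36.9%). By sign, 9 of the 17 Dusp5 peaks had a negative change in all 6. Those 49.4 kb upstream and 18.7 kb downstream were also called lower in all 6, though the young OTC call at the second was lost without any of 4 of the 5 libraries (adjusted p of 0.0552 to 0.208). The 6 settings use separate libraries. How many of all peaks keep their sign or their call over the 6 settings was not counted. Such counts, here and below, thus have no background and are not read as particular to these genes.

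Ordered over the libraries without the Dusp5 guide, the Dusp5 locus was lowest in young Zfp219 Tprog, 5286 ± 209.9 (SD, n = 2), followed by aged Zfp219 Tprog, 5613 ± 103 (SD, n = 2), and aged OTC Tprog, 5872 ± 99.5 (SD, n = 2). It was highest in aged OTC Ttran, 8974 ± 289 (SD, n = 2), and aged OTC Tterm, 8537 ± 226 (SD, n = 2). The libraries of that top pair did not overlap, and Ttran over Tterm was 0.07 (SE 0.03, adjusted p = 0.181). Aged OTC Ttad libraries held 7205 and 7175, between Tprog and Tterm. In the Dusp5-guide libraries the order was alike at the ends: Tprog was lowest in both ages, with 5428 and 5545 in aged and 6109 and 6158 in young hosts. Aged Dusp5-guide Ttran held 7858 and 7616 and Tterm 7764 and 7701, which overlapped.

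**Figure D3:**
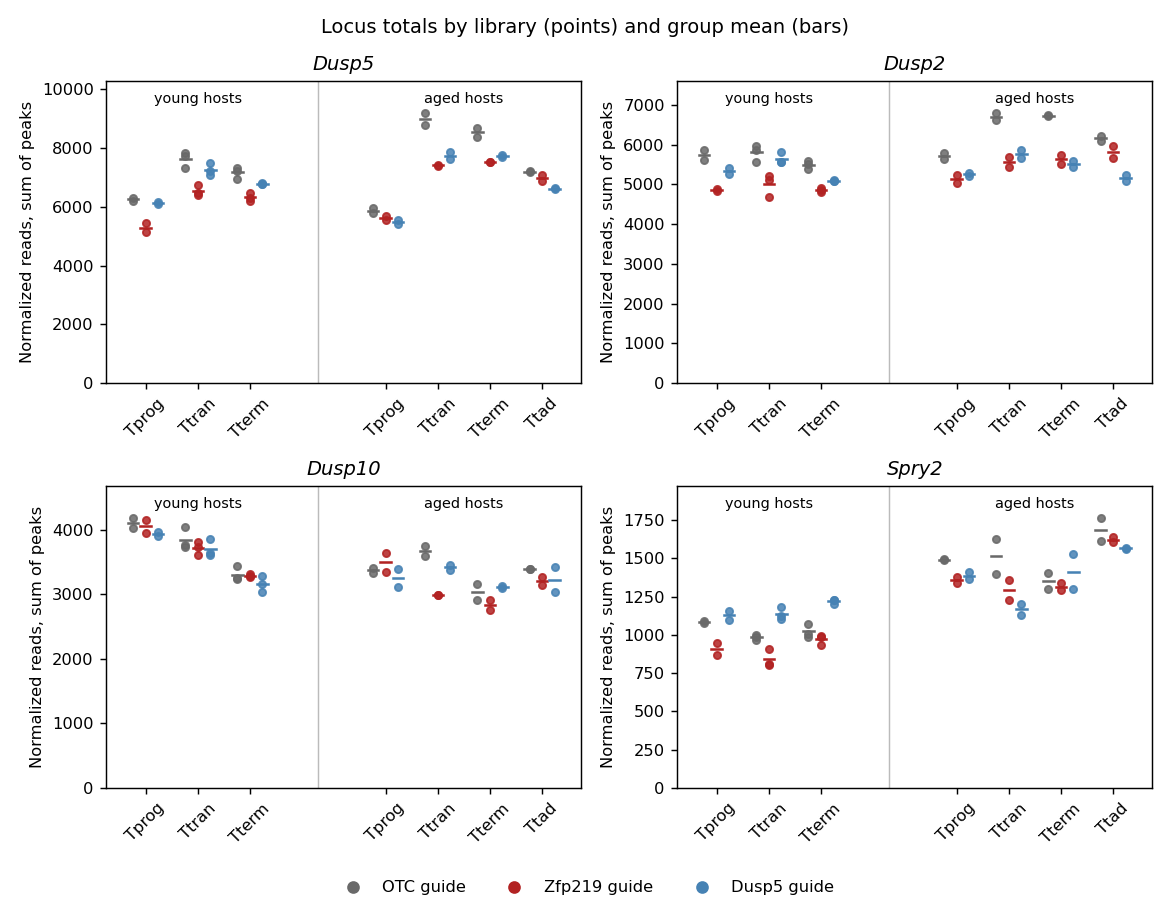
Locus totals in normalized reads (vertical axis, from 0) of Dusp5, Dusp2, Dusp10 and Spry2 in every library (points) with group means (short bars), by state and host age, coloured by guide. Dusp5 is lowest in Tprog for every guide in both ages, and all Spry2 points of aged OTC libraries lie above all those of young OTC libraries.

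Dusp1 encodes an inducible nuclear phosphatase of ERK, JNK and p38. Its start peak held 1835 and 1844 in young Tprog and 1772, 1925 and 1881 in young Tterm, and these overlapped. The locus total was not called in either age (0.08 in young, adjusted p = 0.131, and -0.04 in aged hosts, adjusted p = 0.612). A weak Dusp1 peak 10 kb upstream held 60.2 and 63.3 in young Tprog against 22.1, 27.5 and 12.9 in Tterm, a log2 change of 1.58 (SE 0.42, adjusted p = 0.00224). This peak was named as the largest called rise without overlap in this comparison, so its call and lack of overlap follow from that choice. In aged hosts the same peak changed by 0.74 (SE 0.46, adjusted p = 0.284), which was not called. The Dusp1 peak 6.2 kb upstream, named after its values were seen, went the other way. It held 158 and 114 in young Tprog against 193, 219 and 191 in Tterm, and 200.4 and 246 in aged Tprog against 289 and 369 in Tterm, with no overlap in either age. It changed by -0.58 (SE 0.17, adjusted p = 0.00637) in young and -0.56 (SE 0.19, adjusted p = 0.0235) in aged hosts, and was called lower in 5 of the 6 combinations of guide and age.

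Dusp2, a nuclear phosphatase abundant in activated lymphocytes, went opposite ways in the 2 ages at its start peak (chr2:127332460-127336355). It held 4036 and 4053 in young Tprog and 3779.6, 3715 and 3625 in young Tterm. In aged hosts it held 4060.4 and 3883 in Tprog and 4650.1 and 4526 in Tterm. Tprog was above Tterm in young and below it in aged hosts, with no overlap in either. The log2 fold change was 0.13 (SE 0.04, adjusted p = 0.0224) in young hosts, a call lost in 3 of 5 fits without a library (adjusted p of 0.0904 to 0.118) and with a replicate block (0.11, adjusted p = 0.0576). In aged hosts it was -0.21 (SE 0.05, adjusted p = 0.000477), but -0.05 (adjusted p = 0.594) after quantile normalization. The difference between ages was -0.33 (SE 0.06, adjusted p = 0.000447). The peak is strong, and of the 2296 peaks with a mean of at least 1000, 32.6% were called lower in aged Tprog; the part of peak strength in the result was not tested. Dusp4, a nuclear phosphatase of ERK, JNK and p38, had 1 of 10 peaks called in aged hosts (lower) and none in young hosts, and its locus total changed by -0.09 (SE 0.04, adjusted p = 0.055) and 0.04 (SE 0.03, adjusted p = 0.369).

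Dusp6, the cytoplasmic ERK phosphatase, had no called peak between Tprog and Tterm in either age. Its start peak held 1864 and 1726 in young Tprog, 1864, 1825 and 1875 in young Tterm, 2036 and 1885 in aged Tprog and 1885 and 1777 in aged Tterm. The Dusp6 locus total changed by -0.03 (SE 0.04, adjusted p = 0.647) in young and 0.03 (SE 0.05, adjusted p = 0.72) in aged hosts. After quantile normalization the aged value was 0.16 (adjusted p = 0.00783).

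Dusp10, which acts on JNK and p38, had peaks that rose in Tprog. All called Dusp10 peaks were higher, 4 of 11 in young and 3 in aged hosts. The peak 83.9 kb downstream (chr1:184117445-184119107) held 399.7 and 373 in young Tprog and 232, 236 and 249 in young Tterm. Aged libraries held 320.4 and 299 in Tprog and 173 and 165 in Tterm. Every Tprog library was above every Tterm library. The log2 fold change was 0.69 (SE 0.15, adjusted p = 0.000129) in young and 0.87 (SE 0.16, adjusted p = 1.52e-05) in aged hosts. The peak was called higher in all 6 combinations of guide and age, for which the share over all peaks was not counted.

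The peak 66.8 kb downstream of Dusp10 (chr1:184100584-184101868) held 142 and 144 in aged Tprog and 52.3 and 41.2 in aged Tterm, a log2 change of 1.60 (SE 0.27, adjusted p = 2.79e-06). In young hosts it changed by 0.60 (SE 0.25, adjusted p = 0.0669), which was not called. The Dusp10 locus total was 4174 and 4027 in young Tprog and 3429, 3230.0 and 3251 in young Tterm, with no overlap, a log2 change of 0.31 (SE 0.05, adjusted p = 4.38e-09). In aged hosts the change was 0.15 (SE 0.05, adjusted p = 0.013), and 0.09 (adjusted p = 0.327) without aged OTC Tterm replicate 2 or 0.14 (adjusted p = 0.108) without aged OTC Tprog replicate 2. Over gene-body peaks alone it was 0.05 (adjusted p = 0.615). With the Dusp5 guide in aged hosts the locus changed by 0.06 (SE 0.05, adjusted p = 0.375), the only one of the 6 settings without a call.

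Dusp16, also directed at JNK and p38, had lower locus totals in Tprog in all 6 settings. It held 1978 and 1977 in young OTC Tprog and 2435, 2589 and 2403 in Tterm. Aged libraries held 2425 and 2436 in Tprog and 3010.4 and 2984 in Tterm. Tprog lay below Tterm without overlap in both ages. The locus changed by -0.32 (SE 0.05, adjusted p = 2.24e-07) in young and -0.30 (SE 0.06, adjusted p = 1.26e-05) in aged hosts. As a mean of log2 over peaks the aged value was -0.25 (adjusted p = 0.274). In the other 4 settings it ran from -0.38 with the Zfp219 guide in aged hosts to -0.26 with the Dusp5 guide in aged hosts. The start peak of Dusp16 fell in young Tprog, -0.42 (SE 0.10, adjusted p = 0.000662), and the peak 76.4 kb downstream, within the gene body, fell in aged Tprog, -0.39 (SE 0.09, adjusted p = 0.000615). The difference between ages was called at neither of these peaks (0.38 (SE 0.15, adjusted p = 0.181) at the start and -0.24 (SE 0.12, adjusted p = 0.395) downstream).

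Spry1, a feedback inhibitor of receptor signalling to Ras, split by position in young hosts. Its start peak (chr3:37639578-37641390) held 392 and 352 in young Tprog and 537, 447 and 564 in young Tterm. Aged libraries held 549 and 492 in Tprog and 392 and 483 in Tterm. Tprog was lower in every young library and higher in every aged one. The log2 fold change was -0.47 (SE 0.12, adjusted p = 0.0014) in young hosts, with an adjusted p of 0.0600 without young OTC Tprog replicate 2, and 0.25 (SE 0.13, adjusted p = 0.172) in aged hosts, not called. The difference between ages was 0.72 (SE 0.18, adjusted p = 0.00959) and lost its call without any of 3 libraries (adjusted p of 0.0840 to 0.144). Of the other 5 Spry1 peaks, 3 were called higher in young Tprog and 1 in aged Tprog, with log2 fold changes of 0.70 to 1.83.

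Spry2, its close relative, had 1 peak called higher and 1 lower in young Tprog and none called in aged Tprog, and its locus total was not called in either age (0.09 (SE 0.07, adjusted p = 0.367) in young and 0.14 (SE 0.08, adjusted p = 0.181) in aged hosts). Spred1, which brings neurofibromin to Ras, had a start peak lower in young Tprog by 0.24 (SE 0.09, adjusted p = 0.0428) on the log2 scale, a call lost without any 1 of the 5 young libraries (adjusted p of 0.0545 to 0.253). Its locus total changed by -0.21 (SE 0.07, adjusted p = 0.0213) in young hosts and by -0.02 (SE 0.08, adjusted p = 0.92) in aged hosts. The young call was lost in 3 of 5 fits without a library; without young OTC Tprog replicate 1 the value was -0.13, and as a mean of log2 over peaks -0.17 (adjusted p = 0.485).

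Between the ages, whose libraries are separate, 12 of the 82 peaks were called in both, and 11 of them in the same direction. These were 42.3% of the peaks called in young and 55% of those called in aged hosts. Over all peaks the shares were 46.7% and 61.7%. The exception was the Dusp2 start peak. The difference between ages of the state change was called at 6 peaks, 5 of them more negative in aged hosts, against 2.32% of all peaks; quantile normalization gave 2 positive and 3 negative. The count was 2 without young OTC Tprog replicate 2 and 3 without aged OTC Tprog replicate 1 or aged OTC Tterm replicate 1. Of locus totals, Dusp5 and Dusp2 were called (2 of 10, background 8.74%), Dusp2 by -0.30 (SE 0.05, adjusted p = 8.94e-06). Neither call held as a mean of log2 over peaks (-0.25 for Dusp2, adjusted p = 0.112). At the Dusp5 peak 64.3 kb upstream the difference was -0.64 (SE 0.14, adjusted p = 0.00235), and -0.53 (adjusted p = 0.0579) without aged OTC Tprog replicate 2.

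With the other guides the same state contrast called 26 of 82 peaks in aged Zfp219 (background 18.8%), 27 in young Zfp219 (26.8%), 25 in aged Dusp5 (22.9%) and 24 in young Dusp5 libraries (29.8%). Lower calls outnumbered higher ones in all but the last, 20 to 6, 18 to 9 and 17 to 8. In young Dusp5-guide libraries 15 were higher and 9 lower. Whether that split differs from the one with the OTC guide was not tested.

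Ttran cells carry both sort markers. In aged hosts 20 of 82 peaks were called between Tprog and Ttran (background 17%), 16 of them lower in Tprog, and 5 between Ttran and Tterm (3.22%), all higher in Ttran. In young hosts the counts were 13 (16.9%, 11 lower in Tprog) and 9 (8.38%, 5 higher in Ttran). Dusp5 locus totals in aged OTC Ttran were 9179 and 8769.5, against 5802 and 5943 in Tprog, a log2 fold change of Tprog over Ttran of -0.61 (SE 0.03, adjusted p = 3.69e-33). In young hosts it was -0.29 (SE 0.03, adjusted p = 1.25e-13). Ttran was above Tprog in every library of both ages.

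Ttad cells were profiled in aged hosts only. Against Tterm 5 of 82 peaks were called, 2 higher and 3 lower (background 7.28%), and against Tprog 4, all higher (6.55%); quantile normalization gave 1 higher and 1 lower for the second contrast, and TMM scaling 4 higher and 1 lower. Without either of the 2 Tterm libraries the first count was 1, and without aged OTC Tprog replicate 1 or aged OTC Ttad replicate 1 the second was 2. Against Ttran 5 peaks were called (7.74%). The Dusp5 locus changed by -0.25 (SE 0.03, adjusted p = 6.18e-09) against Tterm and by 0.29 (SE 0.03, adjusted p = 1.76e-11) against Tprog, with Ttad between the other states. The first call was lost as a mean of log2 over peaks (-0.25, adjusted p = 0.0618), and the second with gene-body peaks alone (0.12, adjusted p = 0.225). At the Dusp5 peak 64.3 kb upstream Ttad held 813 and 719, a rise over Tprog of 0.57 (SE 0.10, adjusted p = 5.68e-05). Of locus totals 4 were called against Tterm (12.1%) and 2 against Tprog (11.2%); as a mean of log2 over peaks the counts were 2 and 1, and with gene-body peaks alone 1 and 2. Spry2 was among the first 4, with 1761 and 1613 in Ttad and 1403 and 1299 in Tterm and a change of 0.32 (SE 0.08, adjusted p = 0.00162). That call was lost without aged OTC Ttad replicate 1 (0.26, adjusted p = 0.0844) or aged OTC Tterm replicate 2 (0.26, adjusted p = 0.0746), as a mean of log2 over peaks (0.30, adjusted p = 0.276) and with gene-body peaks alone (0.25, adjusted p = 0.307).

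The second comparison was of host age with the OTC guide, over the mean of Tprog, Ttran and Tterm. In aged hosts chromatin was more accessible at most of these genes, most of all at Spry2, and less accessible at Dusp10. Of 82 peaks 35 were called, 29 with more and 6 with fewer reads in aged than in young hosts, against 36.5% of all peaks, of which 17.3% were higher and 19.1% lower. The share called was thus near the background while the direction leaned to higher values, with a median of 0.12 against 0.00 over all peaks. The 82 peaks were also stronger, with a median mean value of 135 against 93.9 normalized reads over all peaks. The part of peak strength in this lean was not tested. All 10 locus totals were called, 9 higher, against 43.0% of all genes, which had a median of 2 peaks. Gene-body peaks alone gave 6 (5 higher) and a mean of log2 over peaks 7 (all higher). Aged and young libraries also differed in depth, as given above, and the part of depth in the age differences was not tested. The column headers number the samples of each age separately, from the same first number. What that numbering stands for is not given, and it cannot be told apart from host age. By state 13 peaks were called in Tprog (15.4%), 20 in Ttran (18.3%) and 25 in Tterm (18.9%).

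The Spry2 locus was 1093 and 1075 in young Tprog, 983, 999 and 966 in young Ttran and 1009, 1069 and 988 in young Tterm. In aged hosts it was 1490.1 and 1493 in Tprog, 1400.4 and 1624 in Ttran and 1403 and 1299 in Tterm. Every aged library exceeded every young one. The locus rose by 0.49 (SE 0.04, adjusted p = 5.23e-20) on the log2 scale, with 6 of 8 peaks called and all 6 higher. The Spry2 start peak rose by 0.34 (SE 0.07, adjusted p = 0.000107). Leaving out any of the 14 libraries ended neither call.

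Dusp16 and Spred1 followed, with locus changes of 0.25 (SE 0.03, adjusted p = 3.57e-11) and 0.23 (SE 0.04, adjusted p = 6.76e-06). The Dusp16 value was 0.14 (adjusted p = 0.189) as a mean of log2 over peaks. The Dusp16 peak 76.4 kb downstream held 1249.7 and 1279 in aged and 874, 951 and 849.8 in young Tterm, and over the 3 states it rose by 0.36 (SE 0.05, adjusted p = 2.85e-09). A weak Spred1 peak 97.6 kb upstream held 125 and 82.9 in aged Ttran and 40.6, 26.6 and 17.9 in young Ttran, and changed by 1.31 (SE 0.24, adjusted p = 4.27e-06), the largest fold change of age among the 82 peaks.

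Among the nuclear phosphatases the locus totals rose in aged hosts by 0.19 for Dusp1, 0.17 for Dusp2, 0.15 for Dusp4 and 0.13 for Dusp5 on the log2 scale (adjusted p of 1.42e-11, 2.22e-11, 9.29e-11 and 1.42e-09). The called peaks of Dusp1 (3), Dusp2 (2) and Dusp4 (3) were all higher, whereas Dusp5 had 5 called higher and 2 lower. The Dusp2 change turned to -0.01 (adjusted p = 0.686) after quantile normalization, and its start peak went from 0.18 to -0.06 (adjusted p = 0.0637). The Dusp1 start peak held 2309.8 and 2204 in aged and 1772, 1925 and 1881 in young Tterm, with no overlap, and changed by 0.20 (SE 0.04, adjusted p = 1.51e-06) over the states. Dusp6 rose by 0.08 (adjusted p = 0.00613), and after quantile normalization by 0.04 (adjusted p = 0.155). Spry1 rose by 0.11 (adjusted p = 0.0175), a call lost without any of 4 libraries; without aged OTC Tterm replicate 2 the value was 0.07. With gene-body peaks alone the Dusp4, Dusp5, Spry1 and Spred1 calls were lost (0.02, 0.03, 0.11 and 0.09), and as a mean of log2 over peaks that of Dusp5 was (0.10, adjusted p = 0.0669).

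Dusp10 was the one locus lower in aged hosts, with 3 peaks called lower and 1 called higher. In Tprog it held 3332 and 3405 in aged and 4174 and 4027 in young libraries, and these did not overlap. The change over the states was -0.16 (SE 0.03, adjusted p = 3.14e-07), and as a mean of log2 over peaks -0.14 (adjusted p = 0.140), though in Ttran, with 3585 and 3748 in aged and 3728, 4037 and 3758 in young libraries, the ages overlapped. The peak 83.9 kb downstream of Dusp10 fell by 0.38 (SE 0.09, adjusted p = 0.000314) on the log2 scale.

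The third comparison was of the Zfp219 guide with the OTC guide, averaged over states. Zfp219 encodes a zinc finger protein. With this guide the Dusp2 and Dusp5 loci were less accessible in both ages. In aged hosts 27 of 82 peaks were called, 3 higher and 24 lower, against 25.8% of all peaks (12.1% higher, 13.7% lower). In young hosts 17 were called, 3 higher and 14 lower, against 7.07% (1.92% higher, 5.15% lower). The median fold change over the 82 peaks was -0.16 in aged and -0.10 in young hosts. Of all 2296 peaks with a mean of at least 1000, 34.7% were lower in aged and 30.4% in young hosts. Of the 9 such peaks among the 82, 5 were lower in aged and 3 in young hosts, and the part of peak strength was not tested. Of locus totals 9 of 10 were called in aged hosts, all lower (36.8% of genes), and 5 in young hosts, 4 lower (14.7%). Quantile normalization gave 5 in aged hosts, without Dusp4, Dusp6, Dusp10 and Spry1, and 4 in young hosts. Gene-body peaks alone gave 6 in aged hosts, 1 of them higher (Spry1), and 4 in young hosts, 2 higher. A mean of log2 over peaks gave 6 and 3, all lower. Tested singly, aged Ttran had 8 of 10 locus totals called and aged Ttad 0, with the other states given below. Apart from single states, aged values are means of 4 states and young values of 3. Each test of a difference between ages uses the 3 shared states, so it need not equal the difference of the values printed.

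**Figure D4:**
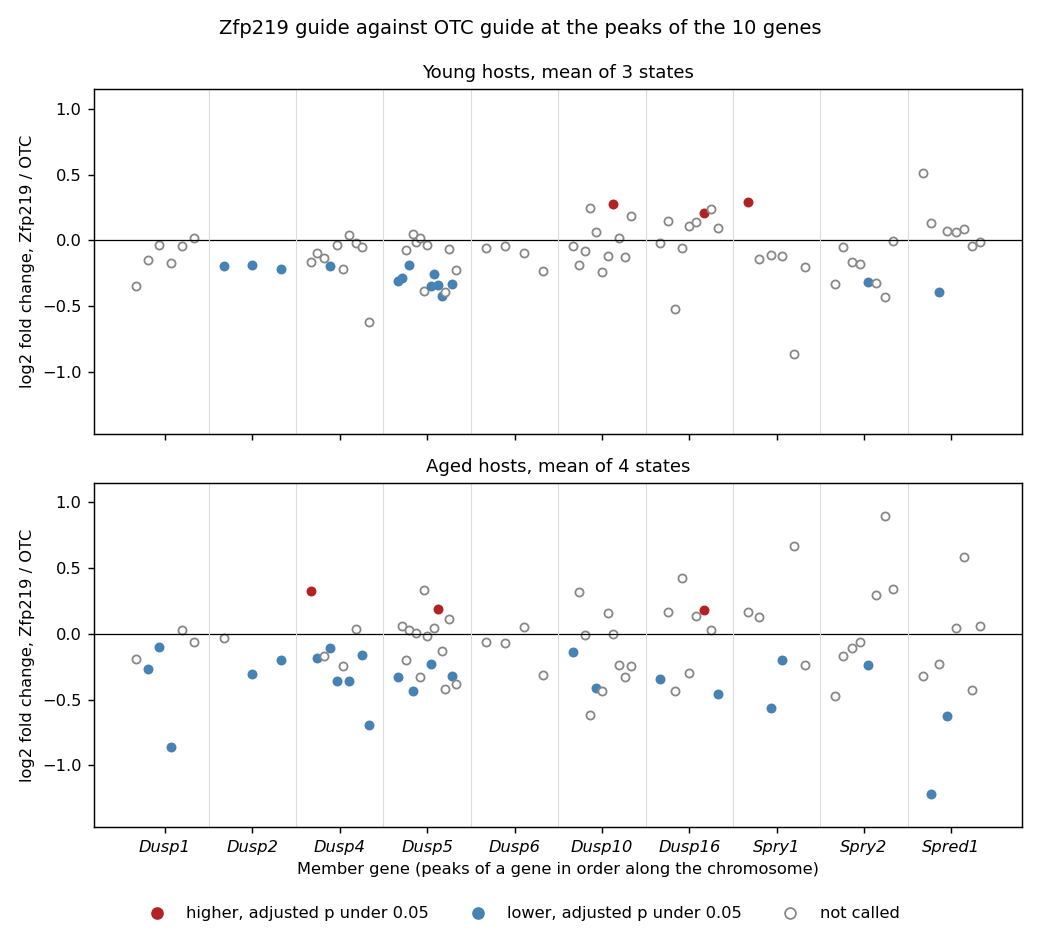
Log2 fold change of the Zfp219 guide over the OTC guide (vertical axis) at each of the 82 peaks, grouped by gene along the horizontal axis, in young (mean of 3 states, upper panel) and aged hosts (mean of 4 states, lower panel), filled where the adjusted p was under 0.05. Called points lie mostly below 0, 14 of 17 in young and 24 of 27 in aged hosts.

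The Dusp2 start peak held 4036 and 4053 with the OTC guide and 3428 and 3366 with the Zfp219 guide in young Tprog. In young Tterm it held 3779.6, 3715 and 3625 (OTC) against 3386, 3261 and 3363 (Zfp219). In aged Tterm it held 4650.1 and 4526 (OTC) against 3796 and 3817 (Zfp219). The Zfp219 libraries were lower without overlap in each of these states. Averaged over states the log2 fold change was -0.22 (SE 0.02, adjusted p = 9.5e-11) in young and -0.20 (SE 0.02, adjusted p = 6.17e-11) in aged hosts. After quantile normalization the aged value was -0.06 (adjusted p = 0.0707). The Dusp2 locus total changed by -0.21 (SE 0.02, adjusted p = 1.03e-16) in young and -0.19 (SE 0.02, adjusted p = 1.23e-15) in aged hosts.

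The Dusp5 locus held 7828, 7718 and 7335 with the OTC guide and 6757, 6399 and 6483 with the Zfp219 guide in young Ttran. In aged Ttran it held 9179 and 8769.5 (OTC) against 7419 and 7397 (Zfp219). Zfp219 libraries were lower in both, with no overlap. Over the states the change was -0.22 (SE 0.02, adjusted p = 2.56e-20) in young and -0.14 (SE 0.02, adjusted p = 6.45e-12) in aged hosts. The strongest Dusp5 peak, 67.9 kb upstream (chr19:53460413-53462012, over the start of lncRNA 4833407H14Rik), changed by -0.31 (SE 0.04, adjusted p = 1.04e-08) in young and -0.33 (SE 0.04, adjusted p = 3.84e-11) in aged hosts. The start peak of Dusp5 was not called in either age (-0.04 (SE 0.04, adjusted p = 0.704) in young and -0.02 (SE 0.04, adjusted p = 0.811) in aged hosts). The peak 64.3 kb upstream was lower in young hosts, -0.29 (SE 0.05, adjusted p = 5.78e-05), and not called in aged hosts, 0.06 (SE 0.05, adjusted p = 0.407).

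Dusp1 had 3 of 6 peaks called in aged hosts, all lower, and none in young hosts. Dusp4 had 7 of 10 peaks called in aged hosts, 6 of them lower, and 1 called in young hosts. The Dusp4 locus changed by -0.09 (SE 0.02, adjusted p = 9.62e-06) in aged and -0.08 (SE 0.02, adjusted p = 0.000577) in young hosts, and after quantile normalization by -0.04 (adjusted p = 0.138) and -0.03 (adjusted p = 0.431). Gene-body peaks alone also ended both calls (-0.01, adjusted p = 0.810, and -0.03, adjusted p = 0.538). The Dusp1 locus changed by -0.16 (SE 0.02, adjusted p = 1.23e-09) in aged and -0.05 (SE 0.02, adjusted p = 0.181) in young hosts, and the start peak of Dusp1 by -0.10 in aged hosts. That start peak value lost its call without any of 3 libraries and turned to 0.01 (adjusted p = 0.826) after quantile normalization. The Dusp6 locus changed by -0.06 (SE 0.02, adjusted p = 0.0311) in aged hosts, a call lost in 8 of 16 fits without a library, and was 0.00 (adjusted p = 0.928) after quantile normalization and -0.07 (adjusted p = 0.114) with gene-body peaks alone.

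Dusp16 peaks went both ways with the Zfp219 guide. The start peak of Dusp16 rose in both ages, by 0.21 (SE 0.06, adjusted p = 0.0102) in young and 0.19 (SE 0.05, adjusted p = 0.00704) in aged hosts; the young value was 0.15 (adjusted p = 0.131) without young Zfp219 Tprog replicate 2 and 0.19 (adjusted p = 0.0520) without young OTC Tprog replicate 1. The peak 76.4 kb downstream held 1245 and 1199 with the OTC guide and 799 and 737 with the Zfp219 guide in aged Ttran. In young Ttran it held 945, 983 and 999 (OTC) against 965, 837 and 828 (Zfp219). The guides did not overlap in aged Ttran and overlapped in young Ttran. It fell in aged hosts, -0.34 (SE 0.05, adjusted p = 3.01e-09), and was not called in young hosts, -0.02 (SE 0.05, adjusted p = 0.832). The difference between ages was -0.36 (SE 0.07, adjusted p = 0.000189). The Dusp16 locus change was -0.17 in aged and 0.10 in young hosts, a difference of -0.27 (SE 0.05, adjusted p = 8.79e-07). These 3 calls were lost as a mean of log2 over peaks, with -0.07 (adjusted p = 0.559), 0.04 (adjusted p = 0.837) and a difference of -0.09 (adjusted p = 0.7). The young locus value was 0.07 (adjusted p = 0.191) without young Zfp219 Tprog replicate 2.

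The Spry1 start peak rose in young hosts, 0.29 (SE 0.07, adjusted p = 0.00185), and its aged value, 0.16 (SE 0.07, adjusted p = 0.0508), was not called. Young Tterm libraries held 537, 447 and 564 with the OTC guide and 695, 552 and 597 with the Zfp219 guide, which overlapped. The Spry1 peak 14.5 kb downstream fell in aged hosts, -0.20 (SE 0.05, adjusted p = 0.00149). The aged Spry1 locus value was -0.09 (SE 0.03, adjusted p = 0.0383), a call lost in 9 of 16 fits without a library, and it turned to 0.16 (adjusted p = 0.0419) with gene-body peaks alone. The Spry2 locus changed by -0.19 (SE 0.04, adjusted p = 0.000189) in young and -0.11 (SE 0.04, adjusted p = 0.0161) in aged hosts, the aged call being lost without any of 4 libraries. As a mean of log2 over peaks the values were -0.23 (adjusted p = 0.0861) and 0.06 (adjusted p = 0.599), and with gene-body peaks alone -0.16 (adjusted p = 0.120) and -0.11 (adjusted p = 0.241). The weak Spred1 peak 97.6 kb upstream held 35.2 and 55.4 with the OTC guide and 15.3 and 11.1 with the Zfp219 guide in aged Ttad, and changed by -1.22 (SE 0.22, adjusted p = 6.15e-06) over the aged states. In young hosts it changed by 0.13 (SE 0.22, adjusted p = 0.798). Over the 3 shared states the ages differed by -1.20 (SE 0.34, adjusted p = 0.0128), with an adjusted p of 0.0507 without aged Zfp219 Tterm replicate 2.

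Single states were also tested, with fewer libraries. The Zfp219 guide called 20 of the 82 peaks in aged Ttran (background 14.2%), 5 in aged Ttad (8.23%), 5 in aged Tterm (3.57%) and 3 in aged Tprog (2.56%). In young hosts it called 4 in Tprog (0.997%), 11 in Ttran (5.88%) and 1 in Tterm (0.275%). Of the 10 locus totals it called 8 in aged Ttran (26% of genes), 3 in Tterm (9.06%), 2 in Tprog (5.59%) and 0 in Ttad (15.6%). All of these were lower. In young hosts it called 3 locus totals in Tprog (3.66%), 4 in Ttran (12.7%, 1 higher) and 3 in Tterm (2.66%). Of the peaks called for this guide, 9 were called in both ages, 8 of them in the same direction, which is 47.1% of those called in young and 29.6% of those called in aged hosts. Over all peaks the shares were 38.3% and 10.5%. The exception, named after its values were seen, was the Dusp5 peak 15.7 kb downstream, -0.34 (SE 0.07, adjusted p = 0.000247) in young and 0.19 (SE 0.07, adjusted p = 0.0228) in aged hosts.

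The fourth comparison was of the Dusp5 guide with the same OTC libraries, so its values and those of the Zfp219 guide share their controls and are given side by side only. The labels call these cells Dusp5 knockouts. Accessibility over Dusp5 does not check the edit. The Dusp5 start peak was not called in aged, -0.11 (SE 0.04, adjusted p = 0.0731), or young hosts, -0.05 (SE 0.04, adjusted p = 0.657). With this guide 11 of 82 peaks passed in aged hosts, 1 higher and 10 lower, against 12.2% of all peaks (7.87% lower). In young hosts 6 were called, 2 higher and 4 lower, against 3.82%; quantile normalization gave 4 higher and 3 lower. The young count was 3 without young Dusp5 Tprog replicate 2 or young OTC Tprog replicate 1. Of the 2296 peaks with a mean of at least 1000, 44.4% were lower in aged hosts, and the part of peak strength in these counts was not tested. Of locus totals 7 were called in aged hosts, all lower (20.6% of genes), and 5 in young hosts, 2 higher (9.23%). The aged count was 3 (1 higher) as a mean of log2 over peaks, and each of the 5 young calls was then lost. Quantile normalization gave 4 in aged hosts and 5 in young hosts, 4 of them higher, and gene-body peaks alone 5 in each.

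Dusp2 was lower at all 3 of its peaks in aged hosts with the Dusp5 guide. Its start peak held 4650.1 and 4526 with the OTC guide and 3855 and 3916 with the Dusp5 guide in aged Tterm. In aged Ttad it held 4328 and 4423 (OTC) against 3680.4 and 3817 (Dusp5). The Dusp5-guide libraries were lower without overlap. Averaged over states the start peak changed by -0.21 (SE 0.02, adjusted p = 6.21e-11) in aged and -0.10 (SE 0.02, adjusted p = 0.00902) in young hosts, the young value being -0.08 (adjusted p = 0.0596) without young Dusp5 Tprog replicate 1. The Dusp2 locus changed by -0.22 (SE 0.02, adjusted p = 1.13e-18) in aged and -0.09 (SE 0.02, adjusted p = 0.00108) in young hosts, and the difference between ages was -0.12 (SE 0.03, adjusted p = 0.00169). After quantile normalization that difference was -0.05 (adjusted p = 0.425). It was -0.14 (adjusted p = 0.0695) as a mean of log2 over peaks, and then the young value was -0.07 (adjusted p = 0.193).

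The Dusp5 locus changed by -0.14 (SE 0.02, adjusted p = 9.37e-12) in aged and -0.06 (SE 0.02, adjusted p = 0.0155) in young hosts. The young call was lost without young OTC Tprog replicate 1 (adjusted p = 0.0575), and as a mean of log2 over peaks both calls were lost (-0.11 in aged and -0.0019 in young hosts, adjusted p of 0.0883 and 0.99). The peak 67.9 kb upstream of Dusp5 held 2028 and 2178 with the OTC guide and 1594 and 1559 with the Dusp5 guide in aged Ttran, with no overlap. It changed by -0.32 (SE 0.04, adjusted p = 1.12e-09) in aged and -0.08 (SE 0.04, adjusted p = 0.326) in young hosts, a difference between ages of -0.23 (SE 0.06, adjusted p = 0.0115), which was -0.19 (adjusted p = 0.0539) after quantile normalization. The Dusp10 start peak fell in aged hosts, -0.15 (SE 0.03, adjusted p = 0.000629), and the value was -0.02 (adjusted p = 0.780) after quantile normalization. The only higher peak in aged hosts was the one 66.8 kb downstream of Dusp10, 0.46 (SE 0.14, adjusted p = 0.0151), a call lost without any of 3 libraries.

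The Dusp16, Spry1 and Spry2 locus totals were called lower with the Dusp5 guide in aged hosts, and their young values were positive. The aged calls were lost as a mean of log2 over peaks (-0.06, -0.10 and -0.01, adjusted p of 0.678, 0.348 and 0.939), as were the young calls of Dusp16 and Spry2 (0.09 for both, adjusted p of 0.622 and 0.612). The Dusp16 locus held 2749.7 and 2689 with the OTC guide and 2352 and 2229 with the Dusp5 guide in aged Ttran. In young Tprog it held 1978 and 1977 (OTC) against 2149 and 2159.8 (Dusp5). The guides did not overlap in either, with the Dusp5 guide lower in aged Ttran and higher in young Tprog. It changed by -0.16 (SE 0.03, adjusted p = 5.3e-06) in aged and 0.12 (SE 0.03, adjusted p = 0.00428) in young hosts, a difference of -0.27 (SE 0.05, adjusted p = 1.55e-06). The Spry2 locus held 1009, 1069 and 988 with the OTC guide and 1229, 1203 and 1226 with the Dusp5 guide in young Tterm, with no overlap. It changed by -0.13 (SE 0.04, adjusted p = 0.00861) in aged and 0.17 (SE 0.04, adjusted p = 0.00108) in young hosts, a difference of -0.31 (SE 0.06, adjusted p = 5.51e-05). The aged Spry2 call was lost without aged Dusp5 Tterm replicate 1 or aged OTC Ttran replicate 2. The Spry1 locus changed by -0.12 (SE 0.03, adjusted p = 0.0084) in aged and 0.10 (SE 0.04, adjusted p = 0.0522) in young hosts, a difference of -0.23 (SE 0.05, adjusted p = 0.00137). The aged Spry1 call was lost without aged Dusp5 Tterm replicate 2 (adjusted p = 0.0510) or aged OTC Tterm replicate 2 (adjusted p = 0.0739). As a mean of log2 over peaks these 3 differences between ages lost their calls (-0.19, -0.12 and -0.22 for Dusp16, Spry2 and Spry1).

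The test of the difference between ages called 7 of the 82 peaks for the Zfp219 guide (2 higher and 5 lower, background 9.11%) and 8 for the Dusp5 guide, all more negative in aged hosts (4%). Of locus totals it called 3 for Zfp219 (16.4%) and 5 for Dusp5 (8.39%). The Dusp5-guide count was 5 without aged Dusp5 Tterm replicate 1. In single states the Dusp5 guide called 7 of 82 peaks in aged Tterm (4.11%), 5 in Ttran (3.80%), 4 in Ttad (2.88%) and 1 in Tprog (0.830%). In young hosts limma called 0 in each of Tprog, Ttran and Tterm (0.782%, 0.646% and 0.273%), where 11, 12 and 12 peaks had an unadjusted limma p under 0.05 and edgeR called 1, 1 and 3. Across ages 1 peak, the Dusp2 start peak, was called for the Dusp5 guide in both, which is 16.7% of those called in young and 9.09% of those called in aged hosts. Over all peaks the shares were 22.2% and 6.94%.

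Counts for 3 lists of other pathway genes, with the same peak assignment, are read against the background of 26.5% of all peaks called between Tprog and Tterm in young and 20.1% in aged hosts. These lists do not cover the pathway, and no direction of the pathway as a whole is read from them. Among the 56 peaks of 7 other phosphatase and Sprouty-family genes, 15 (26.8%) were called in young hosts, 14 of them lower in Tprog, and 15 (26.8%) in aged hosts, 12 lower. Among 30 peaks of 7 stress kinase genes, 10 (33.3%) were called in young hosts, 7 lower, and 8 (26.7%) in aged hosts, 7 lower. Among 54 peaks of 11 genes downstream of ERK, such as Egr1, Fos and Myc, 16 (29.6%) were called in young hosts, 9 higher, and 14 (25.9%) in aged hosts, 12 lower. A difference between ages was called at 2 of these 54 peaks (3.70%, background 2.32%) and in 6 of the 11 locus totals, all more negative in aged hosts (background 8.74% of locus totals). With the Zfp219 guide this group had 18 peaks called in aged hosts (33.3%, background 25.8%), 13 lower, and 7 in young hosts (13%, background 7.07%), all lower. No gene of these lists met the rule for naming with values.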

How the data were processed

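The deposited table gives 1 normalized signal for each peak in each library, made by the authors. Bowtie2 2.2.9, Picard 2.8.0, SAMtools 1.3.1, MACS2 2.1.1, DESeq2 1.28.1 and the build mm10 are listed per the submitters' processing notes, with no role or order; how duplicates were handled and whether insertion sites were shifted is not given in the sources used here. The values are whole reads divided by a library factor: 100% were whole multiples of the worth of 1 read in every library (tolerance 0.001 reads). Unequal depth and duplicates, where kept, change the precision of weak peaks.

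Groups came from the sample titles. RefSeq gene bodies on GRCm38.p6 were used for assignment. limma 3.58.1 (R 4.3.3) was fitted with a trend on log2(value + 1), with a mean for each of the 21 groups over 48 libraries and Benjamini-Hochberg adjustment over 53868 peaks or 15017 locus totals. Replicates of a group differed by 2.83 to 4.63 times counting noise (chi-square per degree of freedom). The fit was tested on simulated data. Alternatives were edgeR 4.0.16 with TMM on the recovered reads, which called 28 of the 82 peaks between Tprog and Tterm in young and 22 in aged hosts, a filter that drops the weakest 25% of peaks (14 of the 82), a pseudocount of 8, TMM scaling, quantile normalization, quality weights, a replicate block, the compared groups alone, gene-body peaks alone, a mean of log2 over peaks, and leaving out each library.

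Peaks were named by a rule. Of each gene it took the strongest peak and, where a start was assigned, the start peak. Per comparison it added the called peak with the largest change in each direction. That peak came from those whose groups do not overlap and whose higher group has a mean of at least 50. Its call and its lack of overlap in that comparison thus follow from the rule. The strongest Dusp4 peak (chr8:34804769-34809372, mean 2036 normalized reads) covers an end of the gene body and is given without group values. The genes, lists and comparisons were chosen with earlier results of these data known. A marker list and a pathway list are not reported here.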

Additional observations from a re-analysis of the deposited data

Results flagged for a closer look

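Each value here is a difference between aged and young hosts in an effect, tested as an interaction in limma on the log2 scale, for the guides over the 3 states that both ages share. It was called at 7 of the 82 peaks for the Zfp219 guide, at 8 for the Dusp5 guide and at 6 for Tprog against Tterm.

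For Tprog against Tterm, a negative value means a more negative change in aged hosts. The named Dusp5 peaks gave -0.40 (67.9 kb upstream), -0.64 (64.3 kb) and -0.54 (49.4 kb), and the Dusp5 locus -0.34. The first call was lost in 7 of 9 fits that left out a library and the third in 8 of 9; the locus call was lost in none. The Dusp2 start peak gave -0.33 and the Dusp2 locus -0.30. The Spry1 start peak gave 0.72.

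For the Zfp219 guide, the Dusp5 peak 64.3 kb upstream gave 0.35, the Dusp16 peak 76.4 kb downstream -0.36 and the Spred1 peak 97.6 kb upstream -1.20. The locus totals gave -0.13 for Dusp1, -0.27 for Dusp16 and -0.17 for Spred1, the last lost in 17 of 28 fits without a library.

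For the Dusp5 guide, the Dusp5 peak 67.9 kb upstream gave -0.23, the Dusp16 peak 76.4 kb downstream -0.37 and the Spry1 start peak -0.34, the last lost in 11 of 28 fits. The locus totals gave -0.12 for Dusp2, -0.09 for Dusp5, -0.27 for Dusp16, -0.23 for Spry1 and -0.31 for Spry2. Each locus call given here was lost as a mean of log2 over peaks. Host age is tied to separate mice, tumours, pools and sample numberings in the headers, which cannot be told apart from age here.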

How the results depend on the processing

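Of 3272 recomputed results under other settings, 2956 kept their direction and side of the threshold (counts within 1.5 times), and 14 reversed. Of 5301 with a library left out, 4836 did and 0 reversed. Both totals include results that were not called to begin with. Of the 74 called results at named peaks, 32 lost the call in at least 1 fit without a library. Among the 61 called locus totals, 18 did. Leaving out 1 of 2 libraries assumes that the other varies like the rest. After quantile normalization these turned: the Dusp2 start peak with age, -0.0646; the Dusp1 start peak with Zfp219 in aged hosts, 0.0119, and with Dusp5 in aged hosts, 0.0314; the difference between ages of the Zfp219 effect at the Dusp2 start peak, 0.19 (adjusted p = 0.000664), and locus, 0.12 (adjusted p = 0.00579); and the loci Dusp2 with age, -0.0128, Dusp6 with Zfp219 in aged hosts, 0.0034, and Dusp4 with Dusp5 in aged hosts, 0.0237. With gene-body peaks alone the Spry1 locus gave -0.47 for Tprog in young hosts, 0.16 and 0.29 for Zfp219 in aged and young hosts, and the Dusp5 locus 0.0189 for the difference between ages of the Dusp5 effect. As a mean of log2 over peaks, Spry2 with Zfp219 in aged hosts gave 0.0625 and Dusp10 with Dusp5 in aged hosts 0.21 (adjusted p = 0.0446). The causes were not tested.

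Counts of called peaks with gene-body peaks alone, where fewer peaks are counted, were 9 for Tprog against Tterm in young and 6 in aged hosts, 1 for Ttad against Tterm, 1 against Tprog, 8 for age, 9 for Zfp219 in aged and 5 in young hosts, 4 for Dusp5 in aged and 3 in young hosts, and 2, 3 and 2 for the differences between ages of the Zfp219, Dusp5 and state effects. Quantile normalization gave 3 for Ttad against Tterm, 2 against Tprog, and 11 and 5 for the Zfp219 and Dusp5 differences between ages. Quality weights and groups compared alone each gave 3 for Ttad against Tterm, and for Dusp5 in young hosts groups alone gave 10 and edgeR 12. With a library left out, the counts ran from 8 to 21 (young state), 15 to 18 (aged state), 1 to 3 (Ttad against Tterm), 2 to 3 (against Tprog), 29 to 35 (age), 23 to 27 and 13 to 17 (Zfp219, aged and young), 9 to 13 and 3 to 8 (Dusp5, aged and young), and 6 to 10, 5 to 9 and 2 to 6 (differences between ages of the Zfp219, Dusp5 and state effects).

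Same-numbered libraries of an age did not deviate together (r of -0.018 to 0.017 over 219 pairs), taken over all peaks and across guides. That cannot show whether libraries came from the same mice, and the main fit treated them as unpaired. With a replicate block the counts, in that order, were 23, 20, 5, 4, 34, 27, 17, 11, 6, 7, 9 and 6.

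Groups of 2 or 3 libraries and weak peaks limit the precision. Peaks were assigned by distance alone, and errors cover only the spread between the pools sorted here.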
